A study of Mus musculus with 12 samples.

Results

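The Toll-like receptor genes *Tlr1*, *Tlr2*, *Tlr3*, *Tlr4*, *Tlr5*, *Tlr6*, *Tlr7*, *Tlr9* and *Tlr13*, together with *Cd14*, were followed across ChIP-seq for Rpb2, a subunit of RNA polymerase II, and for H3K27Ac, the histone acetylation of active promoters and enhancers. Members were chosen by name, as the rows of each peak table assigned to 1 of these 10 genes. The Rpb2 table held 54 such peaks of 26706, and the H3K27Ac table held 64 of 55862. All 10 genes had at least 1 peak in each table, and every member peak passed the filter on low counts and was tested.

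Microglia were sorted as CD11b+ CD45lo cells from the brains of untreated 2-mo-old mice on the C57BL/6J background. WT mice (*Cx3cr1*+/+) were compared with *Cx3cr1*-KO littermates, whose 2 copies of the fractalkine receptor gene are disrupted in the germ line by *eGFP*, so that the loss is not limited to microglia. Each sample pooled cells of 3 sex-matched mice, and for each mark and genotype there was 1 pool of either labelled sex, giving n = 2 pools per genotype and 8 libraries. The question the comparison addresses is whether polymerase binding or acetylation differs with the genotype.

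Toll-like receptors are sensors of microbial and damage-derived molecules, and in the brain microglia are the main cells that carry them. TLR1, TLR2, TLR4, TLR5 and TLR6 sit at the cell surface, where TLR2 pairs with TLR1 or TLR6 to bind lipoproteins, TLR4 binds lipopolysaccharide and TLR5 binds flagellin. TLR3, TLR7, TLR9 and TLR13 sit in endosomes and bind nucleic acids. CD14 has no signalling domain of its own and hands lipopolysaccharide to TLR4 and its partner MD-2.

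The libraries held 10395804 to 44332626 mapped reads. Of these, 11.2 to 15.1% lay in peaks for Rpb2. For H3K27Ac the share was 61.1 to 65.3% in 3 libraries and 15.9% in the library labelled WT female, which therefore counts in every H3K27Ac value below as a weakly enriched library. Rpb2 peaks at Y-linked genes held 136 reads in the Rpb2 library labelled WT female, against 0 in the one labelled KO female and 214 and 266 in the WT and KO male ones. These counts are not scaled for depth: in the same order, the libraries held 1309593, 5415932, 1554998 and 2497192 reads in peaks. H3K27Ac peaks at Y-linked genes held 0 reads in both libraries labelled female and 281 and 656 in the WT and KO male ones, as labelled. The Rpb2 library labelled WT female thus goes against its sex label, and only the labels are used here. If that pool held male cells, sex and genotype are partly confounded for Rpb2 and cannot be told apart. Among the members, *Tlr7* and *Tlr13* are X-linked. At the targeted gene, Rpb2 at the *Cx3cr1* start site was 1226 in WT and 1048 in KO (mean RPKM, the reads per kb of peak scaled to 1000000 reads in peaks; log2 fold change -0.23 ± 0.19 SE, adjusted p = 0.650 by edgeR). Where the insertion lies relative to this peak is not given in the sources used here, so the value is no check of the genotype. All 10 microglia markers had an Rpb2 peak within 1000 bp of their start sites, with a summed level of 6991 to 7157 in WT pools and 6471 to 6647 in KO pools. The lists of 6 lymphocyte and 6 neuron markers had no Rpb2 peak, and those of 6 border macrophage and 6 monocyte and neutrophil markers had none within 1000 bp of a start site. Of the other lists of 5 markers each, Rpb2 peaks within 1000 bp of a start site lay at the astrocyte marker *Slc1a3* (143 to 241 over the 4 pools), the oligodendrocyte marker *Mbp* (29.9 to 184, the highest in the library labelled WT female) and the endothelial markers *Pecam1* (65.8 to 130) and *Kdr* (39.1 to 113). The summed level of the astrocyte list was 188 to 241 in WT and 143 to 196 in KO, of the oligodendrocyte list 46.1 to 184 and 29.9 to 98.8, and of the endothelial list 105 to 197 and 157 to 183. H3K27Ac peaks centred within 1000 bp of a start site lay at 2 border macrophage, 1 lymphocyte, 1 astrocyte, 2 oligodendrocyte and 1 endothelial marker, and at no microglia marker. At the lymphocyte marker *Cd8a* the H3K27Ac level was 7.89 and 25.4 in the WT pools labelled female and male, and 2.78 and 19.8 in the KO pools. At the oligodendrocyte marker *Mog* it was 7.33 and 15.1 in WT and 6.67 and 16.0 in KO. *Mbp*, of the same list, went the other way by labelled sex, with 13.2 and 7.38 in WT and 10.7 and 7.66 in KO. In the same order, *Mrc1* had 9.10, 12.4, 5.35 and 2.40, and *Pf4* 6.77, 0, 4.40 and 0.96. *Slc1a3* had 10.4, 9.41, 11.3 and 14.2, and *Pecam1* 6.46, 9.78, 10.3 and 9.27. The part of such cells in the results was not tested.

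A selection of sequences at or beside Rpb2 peaks of these genes is shown first, so that the letters can be read next to the values; it is not a list of the strongest signals, and several start-site peaks with higher levels are not printed. Sequences are those of GRCm38.p6, which shares its coordinates with mm10; promoters come from RefSeq, run 5′ to 3′ on the gene's strand, and stop before the first annotated exon. Peaks are given as their central 300 bases on the plus strand. Capitals mark matches, on either strand, to any of 7 motifs: PU.1 (GAGGAAGT), AP-1 (TGANTCA), NF-kB (GGGANTTCC or GGGNNTTCC, of which the first is contained in the second), IRF (GAAANNGAA), CRE (TGACGTCA), the TATA box (TATAAA) and the E-box (CACGTG). The 7 sequences below begin with the promoters of *Tlr9*, *Tlr6* and *Tlr13*. *Tlr9* had the highest Rpb2 level of the members at a start-site peak. The printed stretch of *Tlr6* lies between Rpb2 peaks and overlaps none. The others are the Rpb2 peaks in acetylated intergenic regions assigned to *Tlr2*, *Tlr1*, *Tlr9* and *Tlr13*.
Tlr9 promoter, chr9:106222348-106222597, plus strand: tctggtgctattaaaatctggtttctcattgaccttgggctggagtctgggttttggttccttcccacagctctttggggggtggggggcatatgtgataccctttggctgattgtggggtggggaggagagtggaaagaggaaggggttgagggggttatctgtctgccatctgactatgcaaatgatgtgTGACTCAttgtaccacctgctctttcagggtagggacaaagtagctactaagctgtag
Tlr6 promoter, chr5:64960098-64960298, minus strand: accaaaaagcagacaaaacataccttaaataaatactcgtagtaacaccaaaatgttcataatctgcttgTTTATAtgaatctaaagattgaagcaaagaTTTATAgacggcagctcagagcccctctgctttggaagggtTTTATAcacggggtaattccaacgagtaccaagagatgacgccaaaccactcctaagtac
Tlr13 promoter, chrX:106143025-106143203, plus strand: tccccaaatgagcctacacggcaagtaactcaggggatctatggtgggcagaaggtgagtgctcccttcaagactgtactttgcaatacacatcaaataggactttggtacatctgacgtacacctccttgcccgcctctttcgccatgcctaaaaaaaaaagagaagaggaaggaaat
Tlr2 upstream peak, chr3:83862868-83863167: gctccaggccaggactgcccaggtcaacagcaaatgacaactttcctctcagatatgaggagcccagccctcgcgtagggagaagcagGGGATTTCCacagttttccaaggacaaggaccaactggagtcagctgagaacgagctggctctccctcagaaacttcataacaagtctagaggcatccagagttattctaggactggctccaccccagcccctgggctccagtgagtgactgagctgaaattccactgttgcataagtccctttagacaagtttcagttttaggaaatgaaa
Tlr1 downstream peak, chr5:64884248-64884547: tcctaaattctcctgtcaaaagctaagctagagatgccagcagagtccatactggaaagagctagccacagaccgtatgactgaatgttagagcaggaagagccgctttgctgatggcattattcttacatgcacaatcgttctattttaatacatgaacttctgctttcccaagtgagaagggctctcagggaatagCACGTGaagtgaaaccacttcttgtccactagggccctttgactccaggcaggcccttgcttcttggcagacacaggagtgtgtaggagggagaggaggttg
Tlr9 downstream peak, chr9:106230238-106230537: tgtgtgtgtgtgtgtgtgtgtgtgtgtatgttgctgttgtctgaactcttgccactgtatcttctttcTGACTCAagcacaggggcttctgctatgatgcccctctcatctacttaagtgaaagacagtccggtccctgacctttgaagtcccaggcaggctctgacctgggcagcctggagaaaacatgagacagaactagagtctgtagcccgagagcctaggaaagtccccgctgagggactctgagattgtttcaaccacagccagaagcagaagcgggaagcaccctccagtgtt
Tlr13 upstream peak, chrX:106139382-106139681: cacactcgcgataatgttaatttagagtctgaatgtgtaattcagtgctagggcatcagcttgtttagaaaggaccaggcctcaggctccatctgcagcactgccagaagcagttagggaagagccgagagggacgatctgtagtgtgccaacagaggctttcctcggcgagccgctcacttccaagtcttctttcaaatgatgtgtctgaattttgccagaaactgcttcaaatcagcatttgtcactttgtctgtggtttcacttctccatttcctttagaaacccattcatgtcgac

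RefSeq promoter windows were matched for 7 of the 10 members, in 9 windows of 250 bases. Of these, 1 held a PU.1 match (*Tlr1*, in a window over which no Rpb2 peak lay), 1 an AP-1 match (*Tlr9*), 1 an NF-kB match (*Tlr2*), 1 an IRF match and 1 a TATA box match (both *Tlr6*, in different windows), and 1 an E-box match (*Tlr1*). Over all 32851 promoter windows the shares were 2.44% for PU.1, 6.75% for AP-1, 4.98% for NF-kB, 7.13% for IRF, 1.55% for CRE, 12.4% for the TATA box and 6.02% for the E-box. Among the 43 member Rpb2 peaks more than 1000 bp from a start site, 2 held a PU.1 match, 5 AP-1, 3 NF-kB, 5 IRF, 0 CRE, 6 the TATA box and 2 the E-box. The shares over all 16578 such peaks were 6.53, 8.9, 4.79, 9.28, 0.398, 13 and 5.53%, respectively. A match is a description of the letters and not of a bound site.

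Levels are given in RPKM of peaks, as above, at the peak with the most reads within 1000 bp of the start site or, where there was none, at the peak with the most reads. *Tlr9* had the highest mean Rpb2 level over the 4 pools (785 ± 159 SD), above 96.8% of the 8350 genes with an Rpb2 peak at the start site. *Cd14* (447 ± 130), *Tlr4* (350 ± 75), *Tlr7* (269 ± 35) and *Tlr2* (258 ± 36) followed. *Tlr6* (160 ± 46), *Tlr1* (141 ± 29), *Tlr13* (120 ± 42), *Tlr3* (98.0 ± 14.2) and *Tlr5* (51.3 ± 32.8) were lower. Only *Tlr2* and *Tlr6* were neighbours in this order whose pools did not overlap. Every other pair of neighbours did not differ beyond its spread. These peaks were taken by their reads. With the peak of the highest level instead, chosen after the data were seen, *Tlr6* followed *Tlr4* (299 ± 63) and *Tlr5* stayed last (62.7 ± 7.7), and the neighbours apart were then *Tlr2* and *Tlr1*, and *Tlr3* and *Tlr5*. The values of *Tlr1* and *Tlr5* come from distant peaks, since neither gene had an Rpb2 peak within 1000 bp of its start site, whereas the other 8 had at least 1.

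**Figure D1:**
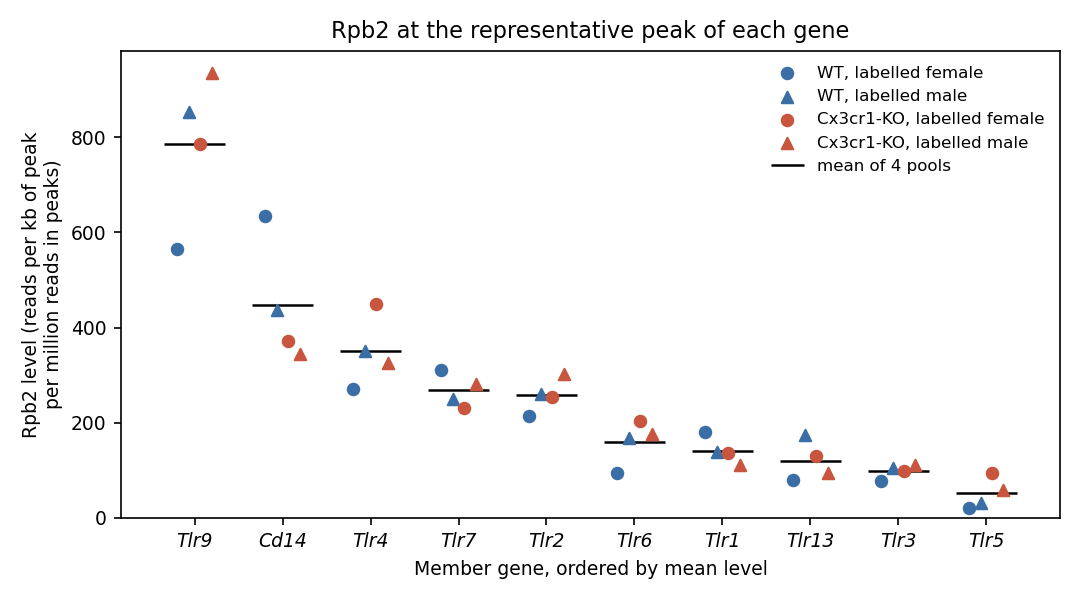
Rpb2 level (RPKM, reads per kb of peak per 1000000 reads in peaks, linear axis) at the representative peak of each gene, with 1 point per pool and a bar at the mean of 4 pools. *Tlr9* lies between 565 and 936 and *Tlr5* between 21.7 and 94.7, and the points of most neighbours overlap.

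H3K27Ac ordered the genes differently. *Tlr6* (27.2 ± 2.9 SD over 4 pools), *Cd14* (25.5 ± 5.3) and *Tlr9* (20.6 ± 1.5) were the highest, and *Tlr9* was apart from the next gene, *Tlr3* (16.0 ± 1.5). *Tlr4* (15.3), *Tlr5* (14.4), *Tlr1* (13.9), *Tlr2* (12.8), *Tlr7* (12.8) and *Tlr13* (10.5) overlapped from 1 to the next. *Tlr1* and *Tlr5*, which had no Rpb2 peak at the start site, thus had an H3K27Ac peak there, 3894 bp and 3260 bp wide. Levels per kb depend on the width of the merged peak, which for H3K27Ac ran from 3260 bp (*Tlr5*) to 13469 bp (*Tlr9*, whose peak covers its start site and reaches *Alas1*).

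**Figure D2:**
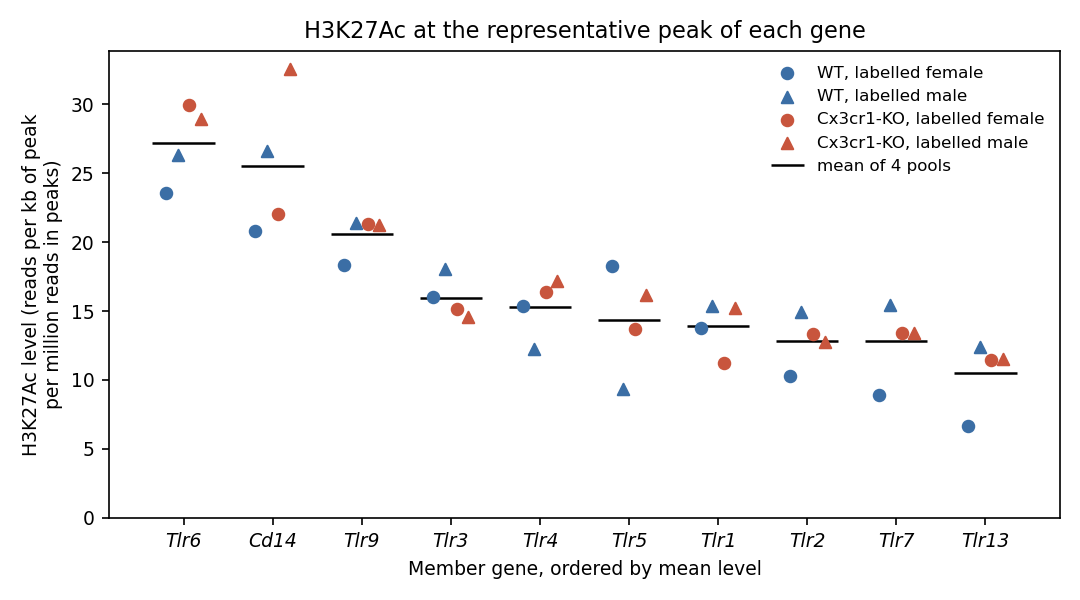
H3K27Ac level (RPKM, reads per kb of peak per 1000000 reads in peaks, linear axis) at the representative peak of each gene, with 1 point per pool and a bar at the mean of 4 pools. *Tlr6*, *Cd14* and *Tlr9* lie above the other genes, and the library labelled WT female is the lowest point at *Tlr6*, *Cd14*, *Tlr9*, *Tlr2*, *Tlr7* and *Tlr13*.

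No Rpb2 peak of a member passed the test between genotypes. Of 54 peaks tested, 0 had an adjusted p under 0.05 with edgeR's quasi-likelihood test (smallest adjusted p = 0.289), beside 2 of all 26706 peaks (0.00749%). In such pools a smaller share of cells with a signal and less signal per cell cannot be told apart. DESeq2 called 1 member peak, an intronic peak of *Tlr7*, beside 3.83% of all peaks, and limma voom 0, beside 0.352%. At an unadjusted p under 0.05, 1 member peak was higher in KO, where 6.12% of all peaks were, and 8 were lower, where 6.06% of all peaks were. The 2 WT pools and the 2 KO pools did not overlap, with KO higher, at 8 member peaks (25.7% of all peaks) and, with KO lower, at 18 (21.7% of all peaks). The median log2 fold change of the 54 peaks was -0.16, beside 0.04 over all peaks. At the 10 representative peaks it was 0.21, beside -0.09 over all genes.

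The tables record whether a peak came from the WT list, the KO list or both, and those lists were made from the same reads, so the direction of a peak of 1 list alone is no finding. The 10 member Rpb2 peaks of the WT list alone had a median log2 fold change of -1.49 (all such peaks -0.89), and 7 of the 8 member peaks lower at an unadjusted p under 0.05 were among them. The 26 of the KO list alone had a median of 0.20 (all such peaks 0.51). The 18 of both lists had a median of -0.33 (all such peaks -0.17), with KO lower in 6 and higher in 1 where the pools did not overlap, beside 29.9% and 10.2% of all such peaks.

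No H3K27Ac peak of a member passed it either. Of 64 tested, 0 had an adjusted p under 0.05 with edgeR (smallest adjusted p = 0.811), beside 13 of 55798 peaks (0.0233%). DESeq2 and limma voom also called 0, beside 0.43% and 0.0125% of all peaks. At an unadjusted p under 0.05, 1 was higher in KO (1.35% of all peaks) and 1 lower (3.6%). Pools did not overlap with KO higher at 11 (14.3% of all peaks) and with KO lower at 11 (13% of all peaks). The median log2 fold change was 0.04, beside -0.21 over all peaks, and 0.10 beside 0.04 over the peaks of both lists. Both medians over all member peaks are the same with the 9 peaks at 0 in both KO pools and the 5 at 0 in both WT pools set to the bound that 3 reads over a genotype give.

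**Figure D3:**
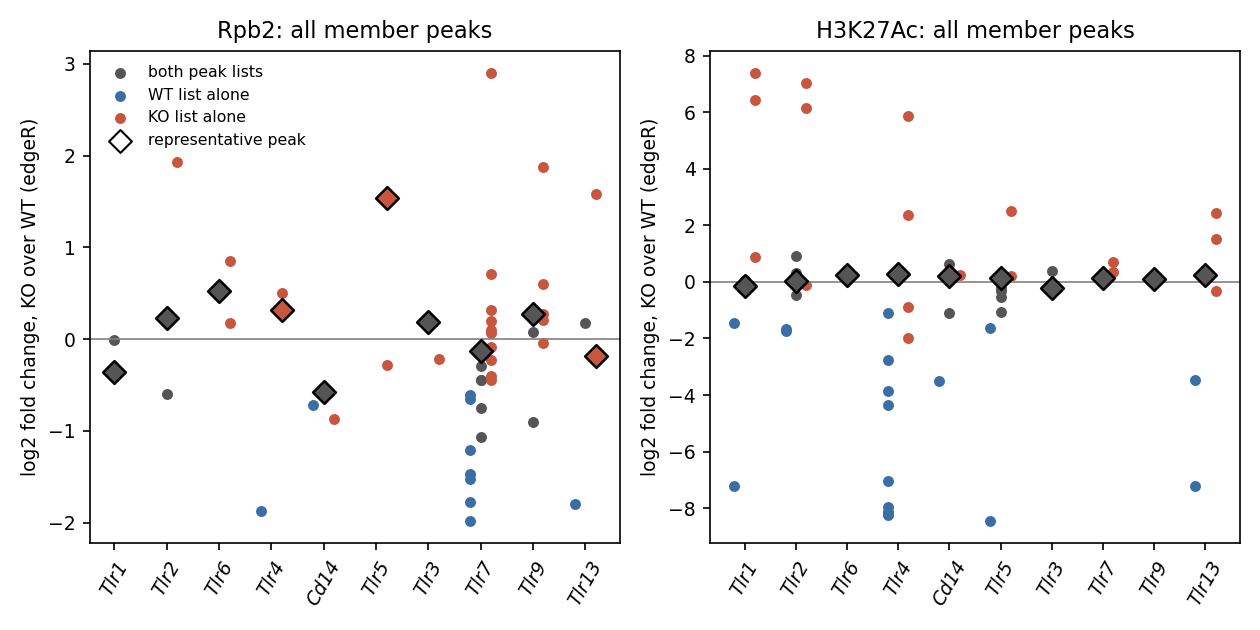
Fold change between genotypes (log2 scale, KO over WT, edgeR) of every member peak, with Rpb2 on the left and H3K27Ac on the right and with colours for the peak list. Diamonds mark the representative peaks, which for H3K27Ac lie between -0.20 and 0.29, while the peaks of 1 list alone spread to either side, where both pools of a genotype can be at 0.

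*Tlr2* (ENSMUSG00000027995, chromosome 3, 83836272 to 83841767, minus strand) encodes the shared partner of the lipoprotein receptors. Its Rpb2 peak at the start site (83841456 to 83841702) had levels of 214 and 261 in the WT pools labelled female and male, against 254 and 303 in the respective KO pools. The groups overlapped (log2 fold change 0.22 ± 0.33 SE, adjusted p = 0.814 by edgeR). H3K27Ac across the gene was 10.3 and 14.9 in WT versus 13.3 and 12.7 in KO (log2 ratio of KO over WT 0.04 ± 0.29). A second acetylated region lay 21473 bp upstream and carried an Rpb2 peak of both lists, the one printed above with an NF-kB match. That Rpb2 peak held 19 and 64 reads in WT versus 88 and 56 in KO, and its log2 fold change was -0.60 ± 0.61, again with overlapping groups. Counts of reads are not scaled for depth, and the KO female Rpb2 library was the deepest, so that a fold change can be negative where its count is the highest.

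*Tlr1* (ENSMUSG00000044827) and *Tlr6* (ENSMUSG00000051498), which encode the partners of TLR2, are neighbours on the minus strand of chromosome 5, at 64924679 to 64933563 and 64952031 to 64960097. They differed in where Rpb2 was found. *Tlr6* had 3 Rpb2 peaks, all within 1000 bp of its start site. At the one with the most reads, in the first intron (64959653 to 64960094), the level was 95.0 and 168 in WT versus 203 and 176 in KO. Both KO pools were higher than both WT pools, but the difference did not pass the test (log2 fold change 0.52 ± 0.35, adjusted p = 0.567 by edgeR). The level was higher at the narrower peak 932 bp upstream, with 355 and 209 in WT versus 326 and 308 in KO, and there the groups overlapped (0.17 ± 0.36, adjusted p = 0.875). *Tlr1* had 2 Rpb2 peaks, 48302 and 48878 bp downstream of its start site, in an acetylated intergenic region. The stronger of these had levels of 180 and 139 in WT versus 136 and 111 in KO, so that both KO pools were lower (log2 fold change -0.36 ± 0.34, adjusted p = 0.694). H3K27Ac at the *Tlr1* start site was 13.8 and 15.4 in WT versus 11.2 and 15.2 in KO, and at *Tlr6* 23.5 and 26.3 in WT versus 29.9 and 28.9 in KO, the latter without overlap (log2 fold change 0.24 ± 0.30, adjusted p = 0.942).

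*Tlr4* (ENSMUSG00000039005, chromosome 4, 66827584 to 66930284, plus strand) encodes the lipopolysaccharide receptor. At its 5′ UTR (66827665 to 66827885) Rpb2 was 271 and 352 in WT versus 450 and 327 in KO. The KO male pool lay between the WT pools (log2 fold change 0.32 ± 0.32, adjusted p = 0.706 by edgeR). This Rpb2 peak is of the KO list alone, so its direction is no finding. H3K27Ac there was 15.4 and 12.2 in WT versus 16.4 and 17.2 in KO, with both KO pools higher (0.29 ± 0.29, adjusted p = 0.903). *Tlr4* also had 15 H3K27Ac peaks, the most of the members, 10 of them from the WT list alone. Several of these lie up to 729929 bp from the start site and hold reads in 1 library. The one 404131 bp downstream held 30 reads in the weakly enriched library labelled WT female and 0 in the other 3, and the one 433139 bp downstream held 29 and 0, 0 and 0. No fold is given for them.

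*Cd14* (ENSMUSG00000051439, chromosome 18, 36725067 to 36726798, minus strand) was the member with the lowest log2 fold change at a start site. Rpb2 at 36726545 to 36726787 was 634 and 436 in WT versus 372 and 345 in KO. Both KO pools were below both WT pools (log2 fold change -0.57 ± 0.28 SE, unadjusted p = 0.060, adjusted p = 0.432 by edgeR). All 4 Rpb2 peaks of the gene had a negative log2 fold change, from -0.57 to -0.88, with KO lower without overlap at 3, beside 21.7% of all Rpb2 peaks. Of the 4, 1 was of the WT list alone and 1 of the KO list alone, and the peaks share a gene and its libraries. H3K27Ac at the start site was 20.8 and 26.6 in WT versus 22 and 32.6 in KO (log2 ratio of KO over WT 0.20 ± 0.30), and at the region 6904 bp downstream the 4 libraries held 56, 290, 583 and 665 reads (0.63 ± 0.31, unadjusted p = 0.041, adjusted p = 0.811), with overlapping levels.

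*Tlr5* (ENSMUSG00000079164, chromosome 1, 182954788 to 182976044, plus strand), the flagellin receptor gene, had its Rpb2 in 2 intergenic peaks of the KO list alone. The one with the most reads, 26667 bp upstream, held 6 and 10 reads in WT versus 112 and 32 in KO, which are levels of 21.7 and 30.6 against 94.7 and 58.1. Both KO pools were higher at this peak of low counts, most of whose reads came from the deepest library, KO female (log2 fold change 1.54 ± 0.80, adjusted p = 0.464 by edgeR). The other, 26174 bp upstream, had the higher mean level, with means of 68.7 in WT and 56.7 in KO, and both KO pools were lower there (-0.28 ± 0.71, adjusted p = 0.900). Acetylation of the region that holds both was -0.20 ± 0.35 on the log2 scale.

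*Tlr3* (ENSMUSG00000031639, chromosome 8, 45395665 to 45411080, minus strand) encodes the sensor of double-stranded RNA. Its Rpb2 level at the start site was 78.0 and 105 in WT versus 98.6 and 110 in KO (log2 ratio of KO over WT 0.19 ± 0.43, adjusted p = 0.888 by edgeR). H3K27Ac there was lower in both KO pools, at 15.1 and 14.6 against 16.0 and 18.1 in WT (-0.20 ± 0.29, adjusted p = 0.973). The acetylated region 4965 bp upstream was higher in both KO pools (0.38 ± 0.29, adjusted p = 0.817). Neither difference passed the test. The peak at the start site also overlaps *Gm45542*, and without strand the signal of the 2 genes cannot be told apart.

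*Tlr9* (ENSMUSG00000045322, chromosome 9, 106222598 to 106226883, plus strand) encodes the sensor of unmethylated CpG DNA. The Rpb2 peak over its start site (106222545 to 106222774) begins near the end of the promoter printed above, within its AP-1 match. Its levels were 565 and 853 in WT versus 787 and 936 in KO. The KO female pool lay between the WT pools (log2 fold change 0.28 ± 0.25, adjusted p = 0.677 by edgeR). A further 7 Rpb2 peaks were assigned to the gene. Of these, the one 7789 bp downstream of the start site, past the end of the gene, held the most reads, 81 and 142 in WT versus 512 and 183 in KO (0.07 ± 0.32). A single H3K27Ac peak covered the gene and *Alas1*, at 18.4 and 21.4 in WT versus 21.3 and 21.2 in KO (0.10 ± 0.33). The share of the Rpb2 reads of *Tlr9* that lay within 1000 bp of the start site was 48.5 and 54.2% in WT and 53.1 and 58.8% in KO.

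*Tlr13* (ENSMUSG00000033777, chromosome X, 106143204 to 106160493, plus strand) encodes a sensor of bacterial ribosomal RNA. Rpb2 at its start site was 80.6 and 175 in WT versus 129 and 94.9 in KO, and the WT pools lay on either side of the KO pools (log2 fold change -0.19 ± 0.55, adjusted p = 0.914 by edgeR). A pair of Rpb2 peaks in an acetylated region lay upstream. The one 7129 bp upstream held 4 and 15 reads in WT versus 123 and 44 in KO (1.58 ± 0.78, adjusted p = 0.437 by edgeR). This peak and the one at the start site are of the KO list alone, so their direction is no finding. The one 3744 bp upstream, of both lists and printed above, held 46 and 36 in WT versus 205 and 76 in KO (0.18 ± 0.48). H3K27Ac at the start site was 6.68 and 12.4 in WT versus 11.4 and 11.5 in KO (0.25 ± 0.30).

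*Tlr7* (ENSMUSG00000044583, chromosome X, 167304929 to 167330558, minus strand) encodes the sensor of single-stranded RNA and held 23 of the 54 Rpb2 peaks, spread from its start site to 30776 bp downstream. At the start site the levels were 312 and 250 in WT versus 232 and 282 in KO, and the groups overlapped (log2 fold change -0.13 ± 0.30, adjusted p = 0.891 by edgeR). The gene body held 19 peaks. Per kb of their summed width, the level was 81.6 and 85.7 in WT versus 58.4 and 56.3 in KO. The KO pools were lower there without overlap in 10 of these peaks and higher in 1, beside 21.7% and 25.7% of all Rpb2 peaks, and the median log2 fold change of the 19 was -0.44. By list, 6 of the 19 were WT peaks, 8 were KO peaks and 5 were in both lists. The level per kb and the median take in all 19 and were not split by list, so their direction is no finding. Of the 10 lower ones, 5 were WT peaks, whose direction is no finding, 1 was a KO peak and 4 were in both lists, where 29.9% of all peaks were lower without overlap.

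A set of 3 gene-body peaks of *Tlr7*, chosen after their values were seen, shows the spread. The one 11609 bp downstream, of both lists, held 76 and 115 reads in WT versus 179 and 82 in KO (log2 ratio of KO over WT -1.06 ± 0.37, adjusted p = 0.289 by edgeR, the smallest of the Rpb2 peaks; 0.044 by DESeq2). The one 3191 bp downstream, of the WT list, held 31 and 40 in WT versus 38 and 20 in KO (-1.78 ± 0.66). The one 5477 bp downstream, of the KO list, held 2 and 3 in WT versus 45 and 49 in KO (2.90 ± 1.04, adjusted p = 0.294). H3K27Ac had a log2 fold change of 0.05 ± 0.30 at the 9351-bp peak centred 10830 bp downstream and 0.14 ± 0.30 at the peak over the start site. The peaks of 1 gene share its libraries and are not replicates.

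**Figure D4:**
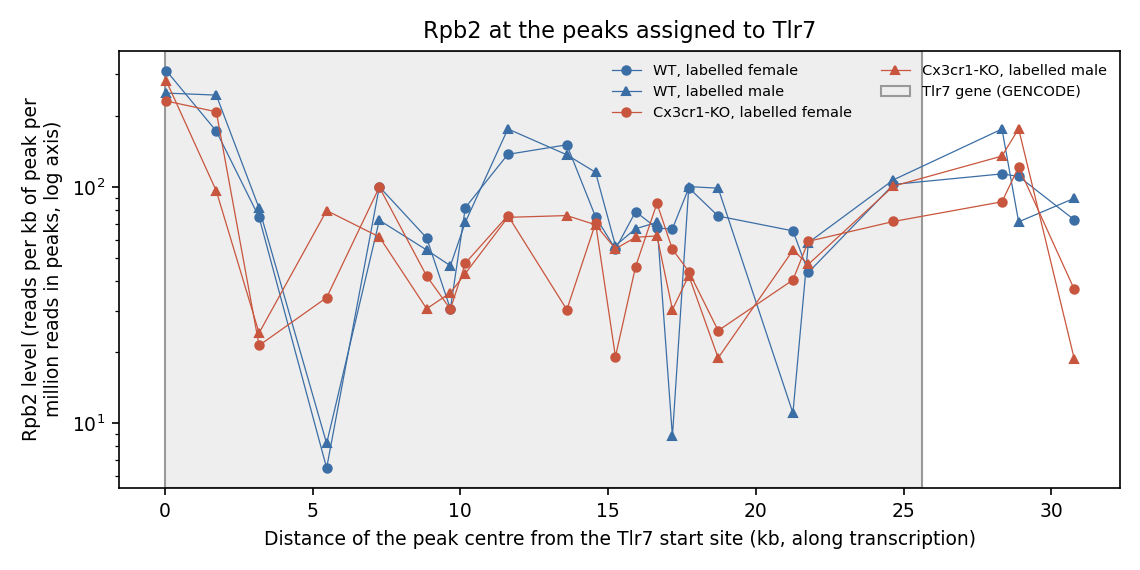
Rpb2 level (RPKM, reads per kb of peak per 1000000 reads in peaks, log axis) at the 23 peaks assigned to *Tlr7*, by the distance of the peak centre from its start site in kb, with 1 line per pool joining its peaks and the gene shaded. The pools overlap at the start site, and in the 19 gene-body peaks the WT pools lie above the KO pools in 10 and below them in 1, beside 21.7% and 25.7% of all Rpb2 peaks. Of those 10, 5 are of the WT list alone, 1 is of the KO list alone and 4 are of both lists.

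Most member Rpb2 peaks lay in acetylated chromatin. Of 54, 41 overlapped an H3K27Ac peak by at least 1 bp (75.9%, 95% Wilson interval 63.1 to 85.4%, which covers counting error only), beside 76.6% of all Rpb2 peaks. All 11 within 1000 bp of a start site did, and so did 30 of the 43 beyond (69.8%, beside 63.4% of all such peaks). Of the 13 member peaks outside acetylated regions, 10 were assigned to *Tlr7* and the others to *Tlr4*, *Tlr9* and *Tlr13*.

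Other genes of the pathway were followed as lists chosen by function. Among 6 adaptor genes, 5 had an Rpb2 peak and 0 passed the test (median log2 fold change -0.13), and all 6 had an H3K27Ac peak (median -0.03). Of 15 genes for kinases and ubiquitin ligases, 14 had a peak in each mark and 0 passed, with a median of -0.37 for Rpb2 and -0.01 for H3K27Ac. Of 9 genes for coreceptors, chaperones and trafficking, 7 had an Rpb2 peak (median -0.38) and 8 an H3K27Ac peak (0.26), again with 0 passing. Inhibitors of signalling gave 3 of 5 with an Rpb2 peak (-0.18) and 5 of 5 with an H3K27Ac peak (-0.19), the interferon regulatory factors 2 of 3 (0.64) and 3 of 3 (0.27), and the Toll-like receptor genes outside the members 1 of 3 (-0.72) and 3 of 3 (0.25), all with 0 passing. Unadjusted p fell under 0.05 for Rpb2 at 4 of the 32 genes with a peak, named here after their values were seen. Over all 10206 genes with an Rpb2 peak it did so at 7.77% with KO lower and 2.91% with KO higher, so these 4 are no result about the pathway. KO was lower at the adaptor gene *Myd88* (-0.73 ± 0.24, adjusted p = 0.275 by edgeR) and at *Tab2* (-1.39 ± 0.34, adjusted p = 0.198) and *Traf6* (175 RPKM in WT, 87.3 in KO, adjusted p = 0.403), which act between the IRAK kinases and TAK1, and higher at the interferon regulatory factor gene *Irf5* (0.80 ± 0.35, adjusted p = 0.380). For H3K27Ac there was none, beside 4.38% of all genes with KO lower and 1.86% with KO higher. The medians over all genes were -0.09 for Rpb2 and -0.04 for H3K27Ac.

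The 3 pathway genes with the highest Rpb2 level were *Unc93b1*, whose product carries endosomal receptors out of the endoplasmic reticulum, at 761 in WT and 841 in KO (log2 ratio of KO over WT 0.15 ± 0.23), the kinase gene *Irak2* at 639 and 567 (-0.17 ± 0.24), and *Ly86*, whose product pairs with CD180, at 684 and 505 (-0.43 ± 0.24, adjusted p = 0.486 by edgeR). Both KO pools were lower than both WT pools at *Irak2* and *Ly86*. For H3K27Ac the 3 highest were *Tab1*, a partner of the kinase TAK1, at 31.8 in WT and 38.0 in KO (0.25 ± 0.29), *Unc93b1* at 28.1 and 34.6 (0.30 ± 0.30), and the adaptor gene *Pik3ap1* at 25.6 and 30.2 (0.24 ± 0.36).

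The genes whose pattern was most like *Cd14*, by Euclidean distance over the log2 levels of the 8 libraries among 6679 genes with a start-site peak in both marks, were *Rpl10a* (0.51), *Anapc5* (0.58) and *0610009B22Rik* (0.60), where the median gene lay at 3.85. For *Tlr2* they were *Eprs* (0.37), *Xpr1* (0.46) and *Ppp1cc* (0.47), with a median of 2.52. *Tlr9* could not be placed, because the centre of its H3K27Ac peak lies 5768 bp from its start site.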

How the data were processed

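ChIP-seq for Rpb2 and H3K27Ac was analysed in 8 libraries of sorted microglia. Reads were aligned by the authors to mm10 (Bowtie 2, unique alignments only). They used HOMER for peak calling, retained peaks reproducible between the pools of a genotype by the irreproducible discovery rate, and deposited raw read counts per merged peak, assigned to the nearest start site. Tool versions are not given in the sources used here. Input (4 samples) was left aside, and 0 columns of per-sample values were left unused. Differences were tested over all peaks of a mark that averaged 4 reads or more in either genotype. The quasi-likelihood test of edgeR 4.0.16 (R 4.3.3, TMM, Benjamini-Hochberg adjustment) was run by genotype alone. The SE of a log2 fold change is its absolute value over the square root of the F statistic of that test. The fit was also run on simulated data, whose outcome is not used here. With 2 pools per genotype, a count of 0 is not read as absence of change. The study's methods tested peaks within 1000 bp of a start site with DESeq2, with cuts on the fold change and the irreproducible discovery rate. Here DESeq2 on all peaks and edgeR on start-site peaks are separate alternatives without those cuts. The study's own combination was not run. Pools are 3 mice each, so p-values measure the spread between pools. An exact permutation test of 2 against 2 pools cannot go below p = 0.333. Levels between genes were compared per kb of peak; intervals cover counting error only.

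All 10 members were described by their representative peak (most reads within 1000 bp of the start site, otherwise most reads), with *Cx3cr1*, the 3 pathway genes with the highest level in each mark, any with an adjusted p under 0.05, and the 3 genes most like *Cd14*, *Tlr2* and the member with the highest Rpb2 level (log2 of the level plus 0.5). The members and lists were chosen with earlier results of these data known. Gene positions come from GENCODE M21. Cell-type marker lists are given mainly by their Rpb2 peaks in the text. In H3K27Ac, 10 of 10 microglia, 5 of 6 border macrophage, 3 of 6 monocyte and neutrophil, 4 of 6 lymphocyte, 3 of 6 neuron, 3 of 5 astrocyte, 4 of 5 oligodendrocyte and 5 of 5 endothelial markers had a peak anywhere. The last 3 lists had an Rpb2 peak at 1, 2 and 3 genes, of which 1, 1 and 2 lay within 1000 bp of a start site.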

Additional observations from a re-analysis of the deposited data

Results flagged for a closer look

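At 8 representative peaks the ratio of KO to WT went opposite ways in the pools labelled female and the pools labelled male. The share of such genes over all genes is not given here, so the 8 are no result about the members. With 1 pool per sex and genotype, the difference between the sexes was not tested, and the Rpb2 library labelled WT female goes against its label. For Rpb2 the log2 ratios, female then male, were 0.73 and -0.11 at *Tlr4*, -0.42 and 0.17 at *Tlr7*, and 0.66 and -0.86 at *Tlr13*. For H3K27Ac they were 0.37 and -0.23 at *Tlr2*, -0.42 and 0.79 at *Tlr5*, 0.59 and -0.21 at *Tlr7*, 0.21 and -0.0075 at *Tlr9*, and 0.77 and -0.11 at *Tlr13*. Intervals for counting error alone covered 0 for several of the male ratios. For Rpb2 these were -0.45 to 0.24 at *Tlr4* and -0.17 to 0.52 at *Tlr7*. For H3K27Ac they were -0.090 to 0.075 at *Tlr9* and -0.30 to 0.093 at *Tlr13*. Every H3K27Ac ratio of the female pools is taken against the weakly enriched library, in which 15.9% of reads lay in peaks; its part in these ratios was not tested. At the other 12 representative peaks both ratios had the same sign.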

How the results depend on the processing

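The count of Rpb2 member peaks called was 0 under every alternative tried except DESeq2 (1, the *Tlr7* peak 11609 bp downstream) and leaving out a pool. Leaving out a pool leaves 1 pool in a genotype, so only effect sizes are given for the member peaks of such fits. Without the pool labelled WT female the 3 were the *Tlr4* peaks 16637 bp and 19368 bp downstream (log2 fold changes 4.36 and -2.14) and the *Tlr7* peak 18726 bp downstream (-2.17). For H3K27Ac the count was 0 except when a pool was left out. Without the pool labelled WT male, the weakly enriched library is the only WT sample, assumed to vary like the others. The log2 fold change was then 0.59 and 0.78 at the start-site peaks of *Tlr7* and *Tlr13*. At distant peaks of *Tlr3*, *Tlr1* and *Cd14* it was 0.69, 0.65 and 1.63. Other peaks that moved were lower in KO, at WT-list peaks of *Tlr5* and *Tlr4*. Those of *Tlr4* held 25 to 30 reads in the weakly enriched library and 0 elsewhere, and no fold is given for them. With sex as a replicate block the counts were 0 and 0. The pools share a label and not animals: the correlation of same-sex deviations was -0.0076 for Rpb2 and -0.00027 for H3K27Ac. For Rpb2 the block and the correlation use a sex label that the library labelled WT female goes against. Neither therefore shows whether sex matters for Rpb2. Over all peaks the tools differed: DESeq2 called 1022 Rpb2 and 240 H3K27Ac peaks, and leaving out 1 pool gave 0 to 2210 and 2 to 8138. Scaling to total mapped reads moved the median of all peaks to 0.37 for Rpb2 and 0.53 for H3K27Ac.

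Directions turned at the following representative peaks. Outside the fits that left out 1 pool, each turned value had an adjusted p over 0.05 by edgeR, DESeq2 or limma. With total mapped reads, Rpb2 was 0.21 at *Tlr7* and 0.11 at *Tlr13*, and H3K27Ac was 0.50 at *Tlr1* and 0.45 at *Tlr3*. With loess offsets, Rpb2 was 0.00095 at *Tlr7*, and H3K27Ac was -0.10 at *Tlr2*, -0.041 at *Tlr5*, -0.013 at *Tlr7* and -0.13 at *Tlr9*. With at least 10 reads in every sample, Rpb2 was 0.0031 at *Tlr7* and H3K27Ac -0.013 at *Tlr2*. With peaks of both lists alone these were 0.032 and -0.0016. At *Tlr2*, H3K27Ac was also -0.013 with DESeq2 size factors, -0.030 with start-site peaks alone, -0.016 with DESeq2, -0.015 with limma voom and -0.0089 with the newer quasi-likelihood method. Over the fits that left out 1 pool, Rpb2 ran from -0.024 to 0.42 at *Tlr3*, -0.28 to 0.018 at *Tlr7*, -0.0032 to 0.61 at *Tlr9* and -0.65 to 0.49 at *Tlr13*, and H3K27Ac from -0.37 to 0.062 at *Tlr1*, -0.20 to 0.34 at *Tlr2*, -0.29 to 0.67 at *Tlr5*, -0.21 to 0.59 at *Tlr7*, -0.013 to 0.21 at *Tlr9*, -0.12 to 0.78 at *Tlr13* and -0.10 to 0.46 at *Cd14*. The order of levels kept 10 of 10 ranks with the peak closest to the start site. With the peak of the highest level, chosen after the data were seen, it kept 7 (Rpb2) and 10 (H3K27Ac). With the reads of all peaks of a gene per kb of their summed width, it kept 1 of 10 in each mark. The overlap with H3K27Ac was 74.1% when at least 50% of the Rpb2 peak had to be covered and 94.4% (17 of 18) for peaks of both lists. The common dispersion of H3K27Ac was 1.28, against 0.13 for Rpb2.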
